A study of Mus musculus with 10 samples.

Results

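Pabpc1 and Pabpc4 encode the cytoplasmic poly(A)-binding proteins that coat the tails of mRNAs, and their own mRNAs were followed here as single molecules in P19 cells, a mouse embryonal carcinoma line with the properties of undifferentiated stem cells. The molecules were all reads of the class mRNA on Pabpc1 or Pabpc4 whose tail estimate had passed the quality filter of the tail caller. They numbered 1652 for Pabpc1 and 375 for Pabpc4, so that these 2 of 13272 detected genes held 2027 of 2041443 kept reads. Their RNA was sequenced natively on nanopores, which reads each poly(A) RNA once from its 3′ end, so 1 read stands for 1 molecule and its tail is measured with it. Wild-type P19 cells were transfected with a pool of scrambled siRNAs (siCtl) or with 1 siRNA against Larp1 (siLarp1), kept undifferentiated, and collected after 24 h or, with a repeat of the transfection, after 48 h. Each treatment had 3 libraries at 24 h, numbered 19, 21 and 22, and 2 at 48 h, numbered 24 and 25. At 24 h the siCtl and siLarp1 libraries were barcoded into separate pools, and an effect of the pool cannot be told apart from one of the siRNA. At 48 h the 4 libraries were sequenced together. The study's methods call the barcoded samples of a group biological replicates, without saying in these sources how the cultures were kept apart, and the p-values measure the spread between them.

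Cytoplasmic poly(A)-binding proteins (PABPs) bind the adenosines of the tail through RNA recognition motifs, contact the initiation factor eIF4G at the cap, and recruit release and deadenylation factors through a C-terminal domain. PABPC1 is the general form in most cells, and PABPC4 is a close relative first described in activated T cells. Pabpc1 mRNA is a classical TOP mRNA, which means that it starts with a C followed by a run of pyrimidines, the 5′-terminal oligopyrimidine motif through which LARP1 holds the mRNAs of ribosomal proteins and translation factors; LARP1 also binds PABP and the tail. The question was whether the 2 PABP mRNAs changed in amount or in tail length when Larp1 was lowered, and how they differed from each other.

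The 5′ and 3′ ends are the parts of both mRNAs that the comparison turns on, because the motif for LARP1 lies at the first and the tail is added at the second. The sequences are from GENCODE M21 (build GRCm38, the same as mm10), in the sense of the mRNA from 5′ to 3′. At the 5′ ends the capitals mark the unbroken run of C and T that begins at the first base. For Pabpc4, farthest upstream is meant among its protein-coding transcripts only. At the 3′ ends they mark AATAAA, the signal for cleavage and polyadenylation, and each line stops at the base at which reads ended most often, for the upstream end among the reads of that group.
Pabpc1, 5′ end: CCCCTTCTCCCCggcggttagtgctgagag
Pabpc4, 5′ end of the most-read transcript: gaaaagaagaggaaaaaaaaaagcaaaagg
Pabpc4, 5′ end of the transcript that starts farthest upstream: gggctcagcacgcctgaagcagaaaaaaga
Pabpc1, main 3′ end: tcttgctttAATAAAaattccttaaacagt
Pabpc1, upstream 3′ end: atataaAATAAATAAAaaaaggaaaggaaa
Pabpc4, main 3′ end: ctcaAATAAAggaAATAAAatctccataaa

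Pabpc1 (ENSMUSG00000022283.15) lies on chromosome 15 on the minus strand, and all 1652 reads were on 1 transcript, ENSMUST00000001809.14, which spans 36595661 to 36608973 with 15 exons and 2817 nt. Its 5′ end is at chr15:36608944-36608973 and opens with 12 pyrimidines. Of 3 annotated protein-coding Pabpc1 transcripts it is the 1 with the motif at its start. A start with C and at least 4 further pyrimidines, read on the sense strand only, was found in 1261 of 58797 annotated protein-coding transcripts (2.14%) and in at least 1 transcript of 29 of 96 TOP genes, so most TOP genes lack these letters at every annotated start. Pabpc4 (ENSMUSG00000011257.19) lies on chromosome 4 on the plus strand, from 123262351 to 123298925. None of its 4 protein-coding transcripts has this motif at the annotated start, which says only that these letters are not at those bases. The 5′ end of its most-read transcript, ENSMUST00000080178.12 (15 exons, 3019 nt), is at chr4:123282911-123282940. Among the 4 protein-coding transcripts ENSMUST00000106243.7 starts farthest upstream, at chr4:123282825-123282854. The annotated gene begins farther upstream still, at 123262351, and no start there was examined. The reads themselves say little about these starts, because the sequencing runs from the 3′ end. A share of 18.0% of the Pabpc1 reads, 297 in all, began within 100 nt of the annotated start, and 6.80% of the reads on the most-read Pabpc4 transcript did (14 reads).

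Pabpc4 reads were spread over several annotated transcripts. The most-read one held 206 of 375 reads (54.9%), followed by ENSMUST00000106243.7 with 67, ENSMUST00000106241.7 with 42, ENSMUST00000183940.7, annotated as a target of nonsense-mediated decay, with 30, and ENSMUST00000078734.11 with 24. The median tails of these 5 transcripts over all libraries were 110.4, 103.0, 112.0, 120.6 and 90.5 nt in the same order. These assignments were uncertain, since the transcripts share most of their sequence. Only 64.5% of the Pabpc4 reads had a mapping quality of at least 10, against 99.6% of the Pabpc1 reads. No read was listed under both genes, but each read also had 1 kept line within its gene, so the table does not show which sequences competed for the reads of low mapping quality.

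The siRNA target and the state of the cells were checked first. Larp1 had 22, 29 and 36 reads in the siCtl libraries at 24 h and 4, 6 and 3 in the siLarp1 libraries, and 19 and 22 against 3 and 3 at 48 h. In reads per 1000000 kept reads of a library (RPM), this was 81.8 ± 5.04 (SD, n = 3) against 32.5 ± 12.9 RPM (SD, n = 3) and 146 ± 32.2 (SD, n = 2) against 21.7 ± 4.51 RPM (SD, n = 2), with no overlap at either time. The exact permutation test within both time points gave a two-sided p of 0.0167, the smallest it can give, and the limma fit of both time points a log2 fold change of −1.89 (SE 0.32, Benjamini-Hochberg adjusted p = 0.000815). Of 10 pluripotency markers 9 had reads in each group, with a summed level of 3359 to 4654 RPM per library, and Zfp42 was at 0 throughout. Most of the summed level came from Pou5f1, with group means of 2480 to 2999 RPM. The 8 neuronal markers summed to 207 to 378 RPM, most of it from Stmn2, and the 8 mesenchymal and endodermal markers to at most 17.4 RPM. Kept reads ranged from 112676 to 423247 per library, and at 24 h each siLarp1 library (119830 to 157012) was shallower than each siCtl library (289635 to 423247).

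Pabpc1 was the more abundant PABP mRNA in every library. Over the 10 libraries it reached 838 ± 116 RPM (SD, n = 10), rank 170 of 13272 genes, and Pabpc4 189 ± 40.7 RPM (SD, n = 10), rank 748. The difference within libraries was 649 RPM (SD 130, higher in 10 of 10 libraries, exact sign-flip test, two-sided, p = 0.00195, the smallest that 10 libraries allow; adjusted p = 0.0091 over the 14 within-library tests of this report). The ratio of Pabpc1 to Pabpc4 reads was 4.69 ± 1.64 (SD, n = 10), from 3.07 to 8.93, without scaling by length because 1 read stands for 1 molecule. Both mRNAs were below most of the 96 TOP genes. This list is mostly of ribosomal proteins and translation factors, also holds others such as Hspa8, Npm1 and Vim, and leaves out both members. The median level of these genes was 3458 RPM, and Pabpc1 would rank 87 and Pabpc4 96 among them.

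The other members of the family were at the edge of detection, so nearly all kept reads assigned to the PABP family were from Pabpc1 and Pabpc4. Over all libraries there were 7 reads of Pabpn1, the nuclear PABP, 5 of Pabpc1l, a form known from oocytes, and 3 of Pabpc4l. Pabpc2, Pabpc5 and Pabpc6 had 0 reads, for which a count of 0 allows up to 3 reads among 2041443.

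Pabpc1 reads did not separate the treatments. These are bulk cultures, in which fewer cells with an mRNA and less of it per cell cannot be told apart. At 24 h Pabpc1 stood at 818, 665 and 744 RPM in siCtl libraries 19, 21 and 22 (237, 229 and 315 reads) and at 818, 710 and 885 RPM in the siLarp1 libraries of the same numbers (98, 95 and 139 reads). These ranges overlapped, with means of 743 ± 76.4 (SD, n = 3) and 805 ± 88.2 RPM (SD, n = 3). At 48 h it stood at 816.5 and 957 RPM in siCtl libraries 24 and 25 (92 and 171 reads) and at 932 and 1037 RPM in siLarp1 (151 and 125 reads), again with overlap. In the limma voom fit across all genes the log2 fold change was 0.13 (SE 0.12, 95% interval −0.11 to 0.37, adjusted p = 0.964) at 24 h and 0.12 (SE 0.15, −0.20 to 0.45, adjusted p = 0.935) at 48 h. Over both time points it was 0.13 (SE 0.10, −0.07 to 0.33, adjusted p = 0.831; exact permutation test of the RPM within time points, two-sided, p = 0.183).

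Pabpc4, with fewer reads, overlapped between treatments at 24 h and lay lower in siLarp1 at 48 h, by an amount that rested on 1 library and did not pass the test. At 24 h it stood at 152, 186 and 168 RPM in siCtl (44, 64 and 71 reads) and at 184, 202 and 185 RPM in siLarp1 libraries (22, 27 and 29 reads), with a log2 fold change of 0.19 (SE 0.20, −0.22 to 0.59, adjusted p = 0.976). At 48 h it stood at 266 and 218 RPM in siCtl (30 and 39 reads) and at 216 and 116 RPM in siLarp1 libraries (35 and 14 reads). The siLarp1 mean was 68.6% of the siCtl mean and the groups did not overlap, but the nearer siLarp1 library lay just under the nearer siCtl one (exact p = 0.333, which is as low as 2 against 2 libraries can reach). Among all genes tested at 48 h, 15.9% were lower without overlap in the same way. The limma log2 fold change was −0.52 (SE 0.30, −1.15 to 0.11, adjusted p = 0.882), −0.14 without siLarp1 library 25, which held 14 reads, and −0.999 without siLarp1 library 24. The siLarp1 effect at 48 h minus that at 24 h was −0.69 on the log2 scale (SE 0.36, −1.40 to 0.03, adjusted p = 0.996), and −97.7 RPM by library means (exact p = 0.05, 0.4 after adjustment over 8 such tests). This exact test relabels libraries within each time point. Its null is no siLarp1 effect at either time, so it does not isolate a difference between the times.

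**Figure D1:**
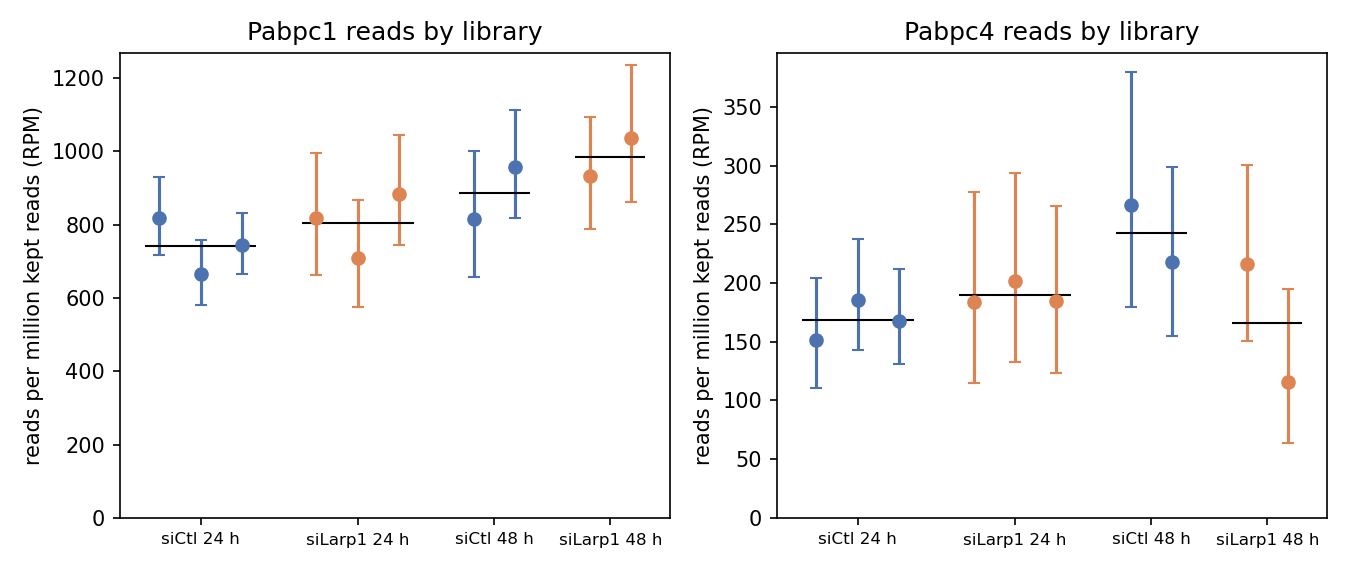
Reads per 1000000 kept reads (RPM, vertical axes from 0) of Pabpc1 (left) and Pabpc4 (right) in each library, with siCtl in blue and siLarp1 in orange. Points are libraries in the order of their numbers, bars are 95% Poisson intervals of the read count, which cover counting error only, and black lines are group means; the groups overlap except for Pabpc4 at 48 h, where siLarp1 lay at 216 and 116 RPM and siCtl at 266 and 218 RPM.

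Neither gene was called for abundance by limma at any time (adjusted p under 0.05; 0 of 2 also at an unadjusted p under 0.05). Calls were rare across the data: 0% of 4797 genes at 24 h, 0% of 2704 at 48 h and 0.259% of 2698 over both time points, Larp1 among them. At an unadjusted p under 0.05, 159 genes were higher and 110 lower at 24 h. The TOP genes had a median log2 fold change of −0.02 at 24 h, with 36 of 96 above 0, and −0.14 at 48 h, with 16 of 96 above 0. All genes tested had medians of 0.01 and 0.02. Pabpc1 was above 0 at both times, and the interval of its change at 48 h held the TOP median. The ratio of Pabpc1 to Pabpc4 reads averaged 4.47 in siCtl and 4.26 in siLarp1 libraries at 24 h, and 3.73 and 6.62 at 48 h, where siLarp1 library 25 had 8.93 and the other 3 libraries 3.07 to 4.38 (exact permutation test of the log2 ratio over both time points, two-sided, p = 0.45).

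The tails of both mRNAs differed. Pabpc1 tails had a median of 90.4 nt over all 1652 reads, with quartiles of 61.3 and 127 nt, and Pabpc4 tails a median of 110 nt over 375 reads, with quartiles of 77.2 and 142 nt. The shortest and longest tails were 8.55 and 377 nt in Pabpc1 and 19.1 and 353 nt in Pabpc4. Averaged over libraries, 20.7% of Pabpc1 and 14.1% of Pabpc4 reads had tails of 30 to 60 nt, and 15.3% and 21.5% had tails of 120 to 150 nt. Tails over 150 nt were found on 231 Pabpc1 reads (14.0%) and on 75 Pabpc4 reads (20.0%), pooled over libraries. At 24 h the shares of Pabpc1 and Pabpc4 were 14.3% and 22.9% in siCtl and 18.4% and 15.4% in siLarp1. At 48 h they were 12.5% and 13.0% in siCtl and 9.06% and 26.5% in siLarp1.

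**Figure D2:**
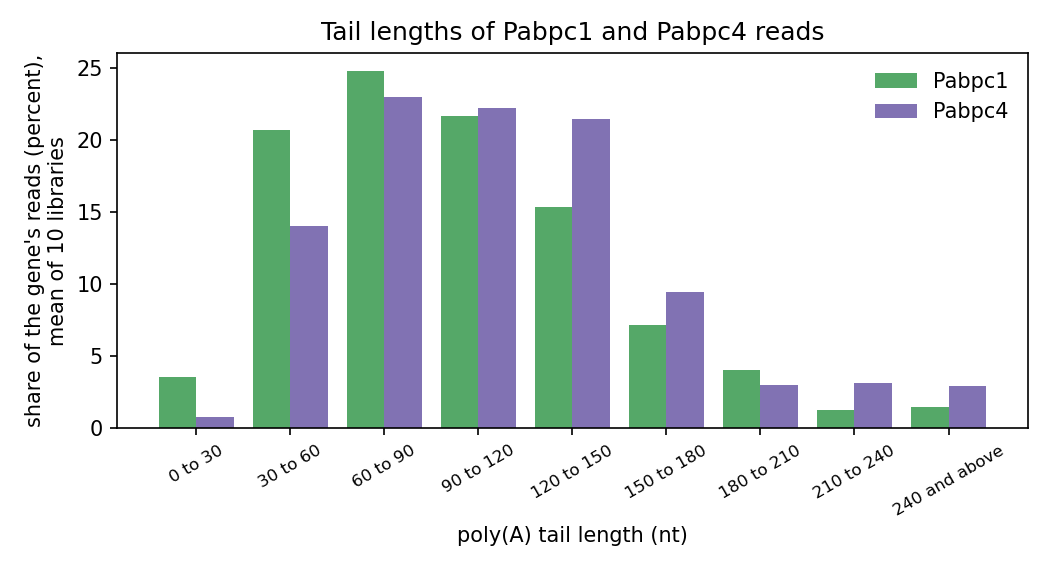
Share of reads (percent, mean of the shares in 10 libraries, axis from 0) by poly(A) tail length in bins of 30 nt for Pabpc1 (green) and Pabpc4 (purple). Pabpc1 holds the larger share in the 3 bins below 90 nt, with 3.53% against 0.752% under 30 nt, and from 180 to 210 nt. Pabpc4 holds it in the bins from 90 to 180 nt and from 210 nt upward.

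The difference between both genes was seen within libraries and lay in the same direction in all 4 groups. Pabpc1 had median tails of 89.0, 97.9 and 85.0 nt in the siCtl libraries at 24 h and of 90.3, 86.2 and 115 nt after siLarp1. At 48 h they were 100.3 and 86.5 nt with siCtl against 88.2 and 86.8 nt with siLarp1. Those of Pabpc4 were 100.5, 113 and 113 nt, then 112, 97.1 and 120 nt at 24 h, and 94.5 and 110 nt, then 115 and 99.4 nt at 48 h. Pabpc1 was the shorter of both in 9 of 10 libraries, the exception being siCtl library 24. The mean difference, Pabpc1 minus Pabpc4, was −14.8 nt (SD 10.6, exact sign-flip test, two-sided, p = 0.00586, adjusted p = 0.0137 over 14 tests). By group it was −18.1 nt (siCtl, 24 h), −12.2 nt (siLarp1, 24 h), −8.68 nt (siCtl, 48 h) and −19.7 nt (siLarp1, 48 h). With only reads of mapping quality of at least 10 it was −13.1 nt, and with only the most-read transcript of each gene −17.3 nt, lower in 10 of 10 libraries.

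Both sides of the distribution moved with the median. The lower quartile of Pabpc1 tails lay 13.0 nt below that of Pabpc4 as a mean over libraries (61.9 against 74.95 nt, adjusted p = 0.0137) and the upper quartile 14.1 nt below (126 against 140 nt, adjusted p = 0.0274, exact sign-flip tests). Tails under 30 nt made up 3.53% of Pabpc1 and 0.752% of Pabpc4 reads as means of 10 libraries, 2.78 percentage points apart (SD 2.19, higher in Pabpc1 in 9 of 10 libraries, exact p = 0.00781, adjusted p = 0.0156). These were 56 of 1652 Pabpc1 reads (95% Clopper-Pearson interval 2.57% to 4.38%) and 3 of 375 Pabpc4 reads (0.165% to 2.32%). Tails of 30 to 90 nt made up 45.5% ± 6.87 and 37.0% ± 7.65 (SD, n = 10), 8.49 points apart and higher in Pabpc1 in 8 of 10 libraries (exact p = 0.0215, adjusted p = 0.0301).

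**Figure D3:**
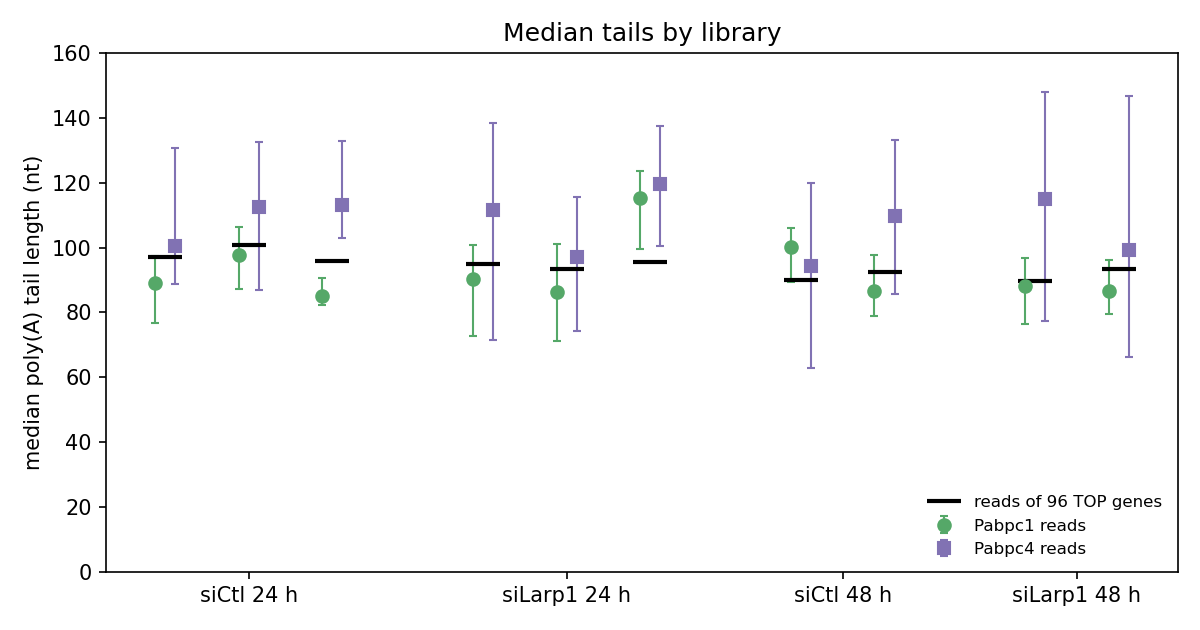
Median poly(A) tail length (nt, axis from 0) in each library of Pabpc1 reads (green circles) and Pabpc4 reads (purple squares), with 95% order-statistic intervals of the median, and of all reads of the 96 TOP genes (black bars). Pabpc4 lies above the TOP median in 10 of 10 libraries, and Pabpc1 lies below Pabpc4 in 9 of 10.

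Beside the TOP genes, Pabpc1 tails showed no difference past the test and Pabpc4 tails were longer. The median over all TOP reads of a library was 89.6 to 101 nt. Pabpc1 differed from it by −1.76 nt on average (SD 9.48, lower in 8 of 10 libraries, exact sign-flip test, two-sided, p = 0.578), with siLarp1 library 22 at 19.8 nt above it. Pabpc4 exceeded it by 13.0 nt (SD 8.39, higher in 10 of 10 libraries, from 3.51 to 25.4 nt, exact p = 0.00195, adjusted p = 0.0091), and its share of tails under 30 nt was lower in 9 of 10 libraries (−2.10 points, exact p = 0.00977, adjusted p = 0.0171). Among 964 genes with at least 300 reads, the mean of the library medians ran from 73.2 to 146 nt with a middle value of 101 nt. Pabpc1, at 92.5 nt, was longer than 16.2% of these genes and 38.5% of the TOP genes, and Pabpc4, at 107 nt, longer than 74.7% and 92.7%.

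Median tails of neither gene passed the test for a change with siLarp1. Pabpc1 means at 24 h were 90.6 ± 6.57 (SD, n = 3) in siCtl and 97.3 ± 15.8 nt (SD, n = 3) in siLarp1 libraries, which overlapped, with siLarp1 library 22 at 115 nt far above the other two. The weighted limma fit gave 9.62 nt (SE 5.40, −1.39 to 20.6, adjusted p = 0.875), and −1.72 nt without siLarp1 library 22. The median over all kept reads of that library was 104 nt, within the 101 to 104 nt of the other libraries at 24 h. At 48 h the means were 93.4 ± 9.77 (SD, n = 2) and 87.5 ± 1.02 nt (SD, n = 2), where siCtl library 24 at 100.3 nt was the high one. The fit gave −3.76 nt (SE 6.09, −15.9 to 8.37, adjusted p = 0.99), and 1.07 nt without siCtl library 24. Pabpc4 changed by −0.247 nt (SE 9.20, −19.0 to 18.5, adjusted p = 0.998) at 24 h and by 7.48 nt (SE 13.1, −18.6 to 33.6, adjusted p = 0.991) at 48 h. These intervals leave room for changes of up to 20.6 nt in Pabpc1 at 24 h and 33.6 nt in Pabpc4 at 48 h. No gene was called at either time (0% of 4797 and of 2704 genes in limma, with 176 higher and 101 lower at 24 h and 112 higher and 50 lower at 48 h at an unadjusted p under 0.05), and 0.0371% of 2698 over both times.

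The share of Pabpc1 tails under 30 nt did not pass the test for a change with siLarp1. Their share was 4.64%, 2.18% and 2.86% in siCtl libraries 19, 21 and 22 (11, 5 and 9 reads) and 3.06%, 3.16% and 5.04% in siLarp1 libraries (3, 3 and 7 reads). At 48 h it was 5.43% and 1.75% in siCtl (5 and 3 reads) and 3.97% and 3.20% in siLarp1 libraries (6 and 4 reads). All ranges overlapped, and the intervals of single libraries were wide, for example 0.636% to 8.69% for siLarp1 library 19. The limma differences were 0.715 percentage points (SE 1.06, −1.65 to 3.08, adjusted p = 0.856) at 24 h and 0.581 points (SE 1.63, −3.13 to 4.29, adjusted p = 0.915) at 48 h. The stratified exact test on library means gave 0.258 points (two-sided p = 0.783).

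In the TOP genes the same share had a median difference of 1.31 points at 24 h, with 89 of 96 above 0, and of 1.71 points at 48 h, with 93 of 96 above 0. All 3852 and 2283 genes tested had medians of −0.276 and 0.708 points. Over both times 0.73% of 2601 genes passed the test, 19 genes, which were all TOP genes. That count rested on the 48 h libraries, being 7 without siCtl library 24, 1 without siCtl library 25, 1 without siLarp1 library 24 and 12 without siLarp1 library 25. Pabpc1 was not among them, and its interval at either time held 0 as well as the TOP median. Genes with more reads are more easily called, and the TOP genes had a median level of 3458 RPM, against 838 RPM for Pabpc1. How far this depth accounts for the calls was not tested.

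Pabpc4 had 3 reads with a tail under 30 nt, all at 24 h. They were 1 of 64 reads in siCtl library 21, 1 of 71 in siCtl library 22 and 1 of 22 in siLarp1 library 19. The limma difference at 24 h was 0.165 points (SE 1.88, −4.04 to 4.36, adjusted p = 0.971). At 48 h there were 0 of 69 reads in siCtl, which allows a share of up to 4.35%, and 0 of 49 in siLarp1, which allows up to 6.12%, and no test could be made. These limits, like the Clopper-Pearson intervals, cover counting error only, whereas the limma interval measures the spread between libraries.

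The share of 30 to 90 nt tails followed the same libraries as the median. In Pabpc1 it was 45.6%, 44.5% and 52.4% in siCtl and 46.9%, 52.6% and 32.4% in siLarp1 libraries at 24 h, the last being library 22, and 34.8% and 50.3% in siCtl and 47.0% and 48.8% in siLarp1 libraries at 48 h. The fitted differences were −5.55 points (SE 3.18, −11.8 to 0.693, adjusted p = 0.902) and 2.96 points (SE 4.24, −5.35 to 11.3, adjusted p = 0.94). Pabpc4 shares ran from 27.6% to 50.0% without separating the treatments, with differences of 2.38 points (SE 6.59, adjusted p = 0.991) and 1.09 points (SE 9.19, adjusted p = 0.991). At 24 h 0.146% of 4797 genes passed this test and at 48 h 0% of 2704, with 40 higher and 162 lower there at an unadjusted p under 0.05.

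**Figure D4:**
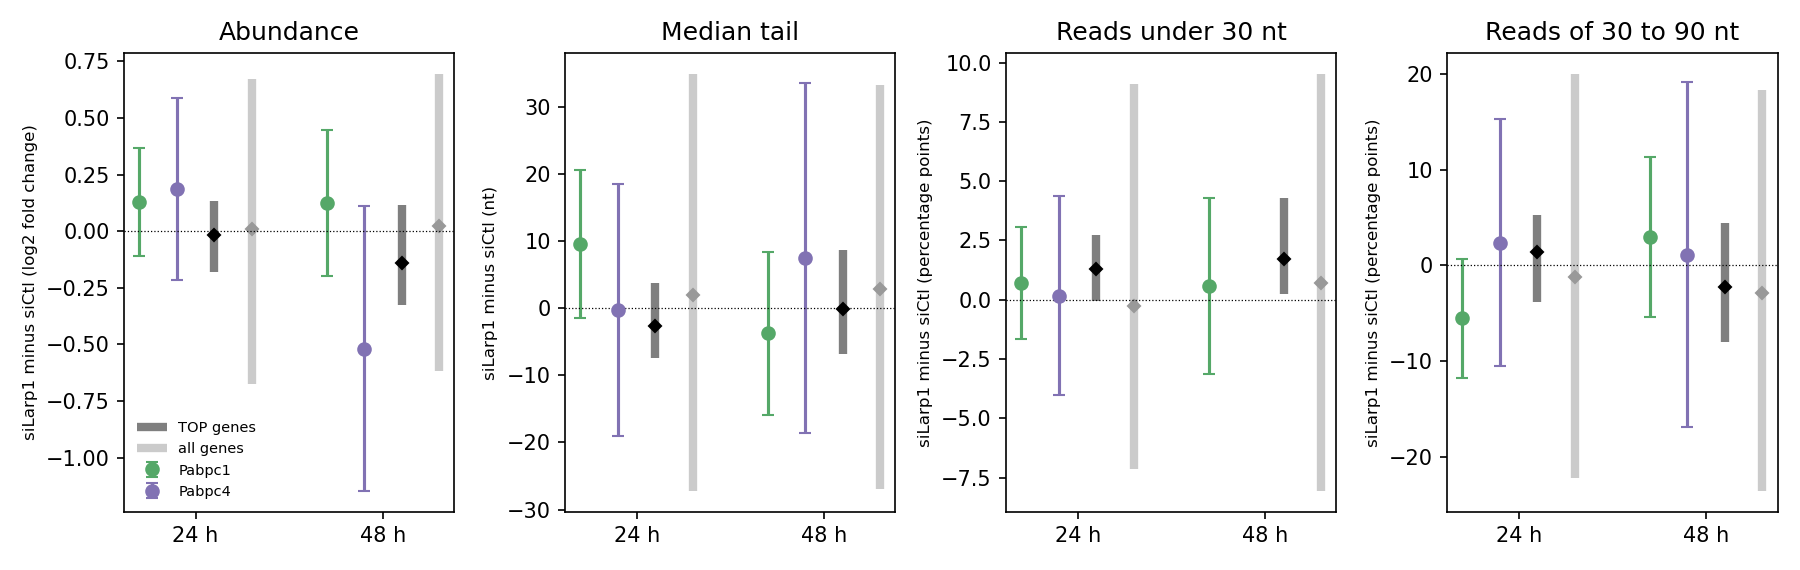
Fitted siLarp1 minus siCtl differences at 24 h and 48 h in abundance (log2 fold change), median tail (nt) and the shares of reads under 30 nt and of 30 to 90 nt (percentage points). Circles with bars are Pabpc1 (green) and Pabpc4 (purple) with 95% intervals of the limma fit, and diamonds on thick lines are the median and the 5th to 95th percentile over the TOP genes (dark) and all genes tested (light); each interval of a PABP gene crosses 0, and Pabpc4 under 30 nt has no value at 48 h, where it had 0 such reads.

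Pabpc1 mRNA ended at 2 places. Of its 1652 reads, 1600 (96.9%) ended within 100 nt of the annotated 3′ end, 1284 of them at the last annotated base, at the end of chr15:36595661-36595690, with AATAAA starting 21 nt before that end. A second group of 51 reads (3.09%, 95% Clopper-Pearson interval 2.31% to 4.04%) ended at bases 2480 to 2516, most often at base 2504, which is 313 nt upstream, at chr15:36595974-36596003 and still in the 3′ untranslated region of 439 nt. The upstream end printed above holds a pair of overlapping AATAAA, 24 and 20 nt before the end. AATAAA was present in the last 30 bases of 35.5% of 58797 annotated protein-coding transcripts, and in 51.4% of 282 transcripts of TOP genes. Of the 20 bases that follow the upstream end in the longer mRNA 5 are A, with no run longer than 2. Their median tail was 96.8 nt (quartiles 65.0 and 150 nt), against 89.9 nt (quartiles 61.0 and 127 nt) at the main end, given as a description. Pabpc4 reads on its most-read transcript ended most often at base 3009 of 3019 (88 of 206 reads), with AATAAA 26 and 17 nt before that end.

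**Figure D5:**
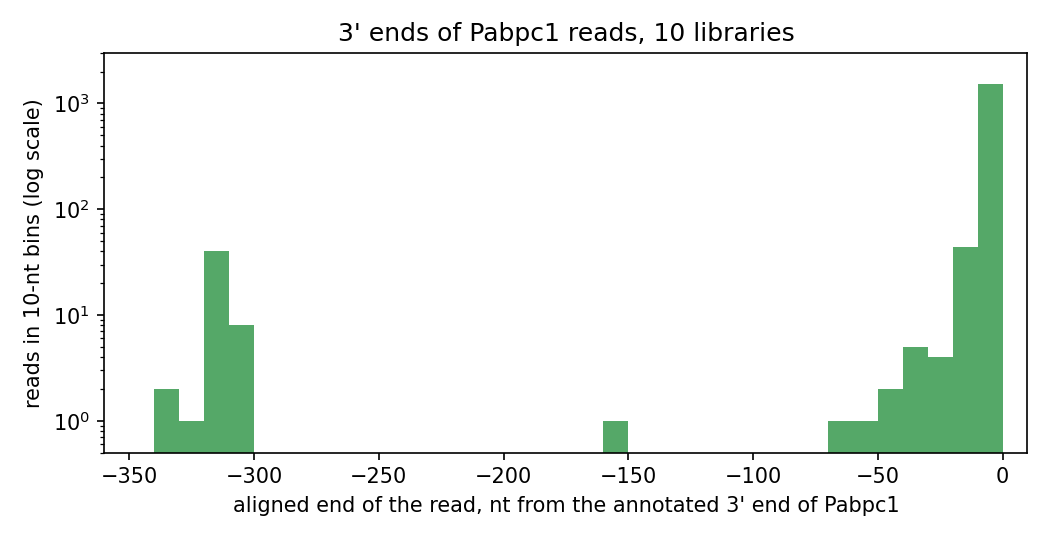
Aligned 3′ ends of the Pabpc1 reads of 10 libraries, in nt from the annotated 3′ end (horizontal axis, bins of 10 nt) against the number of reads (log scale). The main peak of 1543 reads lies in the last 10 nt, and a smaller one lies more than 300 nt upstream.

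The upstream end was used in every library. Its share overlapped between the treatments at 24 h and lay lower in both siLarp1 libraries at 48 h, on few reads. At 24 h it was 2.53%, 3.06% and 3.17% in siCtl and 5.10%, 3.16% and 2.88% in siLarp1 libraries, on 3 to 10 reads each. At 48 h it was 4.35% and 4.09% in siCtl and 0.662% and 3.20% in siLarp1 libraries, on 1 to 7 reads. At 48 h the groups did not overlap (two-sided exact permutation p = 0.333, as low as it can reach, and a share of other genes that separate in this way was not computed for 3′ ends). Over both times the difference was −0.749 points (exact p = 0.6).

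The proteins that work with PABP were described by role from fixed lists. None of those tested except Larp1 was called for abundance. Among all genes tested 51.0% were above 0 at 24 h and 53.2% at 48 h. Among the PABP regulators all 4 were tested at 24 h, of which 2 were above 0 and 2 below, and the 2 tested at 48 h were above 0. The most-read was Mkrn1, a ubiquitin ligase that binds PABP, with 273 ± 28.4 RPM in siCtl and 298 ± 32.6 RPM in siLarp1 at 24 h (SD, n = 3) and 180 ± 33.5 and 240 ± 10.3 RPM (SD, n = 2) at 48 h, a log2 change over both times of 0.29 (SE 0.16, adjusted p = 0.755). Of 6 translation factors 4 were tested, 1 above 0 and 3 below at 24 h and 2 above and 2 below at 48 h. The most-read was Etf1, the release factor eRF1, with 263 ± 7.47 and 260 ± 56.6 RPM (SD, n = 3) at 24 h and 284 ± 37.6 and 275 ± 83.1 RPM (SD, n = 2) at 48 h (log2 change −0.02, SE 0.16, adjusted p = 0.982). The 8 deadenylation factors were too rare to test. Btg1, which brings deadenylases to mRNA, had the most with 35 reads, at 13.6 ± 4.61 and 11.9 ± 10.4 RPM (SD, n = 3) at 24 h. Of 5 other proteins with a PABP-binding motif, all tested at 24 h, 3 were above 0 and 2 below, and of the 4 tested at 48 h 1 was above 0 and 3 below. Usp10, a deubiquitinase, led with 90.1 ± 2.79 and 75.6 ± 33.5 RPM (SD, n = 3) at 24 h and 112.5 ± 16.6 and 76.3 ± 49.2 RPM (SD, n = 2) at 48 h (log2 change −0.42, SE 0.27, adjusted p = 0.823). Of the La-related proteins, which bind PABP and the tail, 2 were tested at 24 h and both were below 0, Larp1 among them, and Larp1 alone was tested at 48 h. In median tail no gene of these roles passed the test at either time.

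The genes most like each member were taken from 963 others with at least 300 reads, as a description. By the Pearson correlation of log2(RPM + 10) over the 10 libraries, which share depth and pools, Pabpc1 was closest to Actb (r = 0.936), Gpx4-ps2 (r = 0.882) and a row named as the vomeronasal receptor Vmn2r97 (r = 0.862), and Pabpc4 to Ubxn1 (r = 0.856), Bex1 (r = 0.845) and Seh1l (r = 0.824). Gpx4-ps2 is named as a copy of Gpx4, from which it may share reads. By the distribution of tails in bins of 30 nt, as the total variation distance (0 for equal shares, 1 for none in common), Pabpc1 was closest to Rpl27a (0.0177), Rpl27 (0.0179) and Glrx5 (0.0180), of which the first 2 are in the TOP list. Pabpc4 was closest to Gpx4 (0.0332), Rps27l (0.0401) and Tmem256 (0.0406), and lay at 0.123 from Pabpc1.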

How the data were processed

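The deposited table, made by the authors, gives 1 line per read and aligned sequence: the tail length in nt (Nanopolish), a quality tag, the mapping quality as a score and the barcode confidence as a fraction. Reads had been called with Guppy, assigned with Deeplexicon and aligned with Minimap2 (2.20 in the submitters' processing notes) to mm10 transcripts. Kept were mRNA alignments with the tag PASS, each read counted once per gene. Alignments whose family label named a pseudogene, and genes whose names start with mt-, were left out beforehand. Reads per gene were tested with limma voom (limma 3.58.1, R 4.3.3), scaled to kept reads; median tails and tail class shares with limma weighted by reads, for genes with at least 30 reads at a time point. Adjusted p-values (Benjamini-Hochberg, all genes) under 0.05 were called. Genes with no read of a class were not tested for it. Library means were compared by exact permutation, and Pabpc1 with Pabpc4 and TOP reads by exact sign flips over libraries. With 3 against 3 libraries no p below 0.1 is possible. The fits were tested on simulated data, with known changes put into genes with at least 300 reads. A log2 fold change of 1 was recovered in 81% of these at 24 h and 72% at 48 h. A median tail change of 20 nt was recovered in 38% and 20%, and a rise of 5 points under 30 nt in 24% and 4%. In the simulation, tail changes of these sizes were thus mostly missed. It used an assumed spread for reads and medians, counting error only for tail shares, and no effect of the pool. Recovery at the read depths of Pabpc1 and Pabpc4 was not computed.

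The members and lists were chosen with earlier results of these data known, among them the PABP partner list. Named were both members with each transcript holding at least 5% of the reads, PABP family members with any read, Larp1, the most-read gene of each role and the 3 nearest genes by each likeness. Groups came from the labels; library numbers could not be linked to labelled replicates. Alternatives changed the quality tag, barcode and mapping limits, depth, filters, scaling, tail summary, weights and class limits, left out libraries, or used the library number as a block.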

Additional observations from a re-analysis of the deposited data

How the results depend on the processing

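Of 598 alternative values for Pabpc1 and Pabpc4, 513 kept direction and side of the threshold and 85 took the other direction. None passed it (limma, adjusted p 0.383 to 1). The shorter median tail of Pabpc1 than of Pabpc4 kept its direction and side throughout, between −13.1 and −18.7 nt (exact p 0.00195 to 0.0117; alternatives added after seeing the data). Pabpc4 values rest on 14 to 71 reads per library and those of Pabpc1 on 92 to 315. Values below are log2 fold changes, nt or percentage points as in the report, "both" stands for both time points and the time difference for the effect at 48 h minus that at 24 h, and the cause of each change was not tested. With all quality tags, genes called were 2 (abundance, 24 h), 1 (abundance, 48 h), 14 (30 to 90 nt, both) and values of the other direction were 3.68 (Pabpc4 median tail, 24 h), −1.31 (Pabpc1 median tail, both), −0.489 (Pabpc4 under 30 nt, both), −0.85 (Pabpc4 30 to 90 nt, 24 h), −0.12 (Pabpc4 30 to 90 nt, both), 1.46 (Pabpc4 30 to 90 nt, the time difference). With the library number as a replicate block, genes called were 18 (abundance, 24 h), 4 (abundance, 48 h), 25 (abundance, both), 3 (median tail, 24 h), 17 (under 30 nt, 48 h), 8 (under 30 nt, both), 3 (30 to 90 nt, 24 h) and values of the other direction were 0.018 (Pabpc1 abundance, the time difference), 0.0653 (Pabpc4 median tail, 24 h). With a barcode confidence of at least 0.9, genes called were 1 (abundance, 48 h), 3 (abundance, both), 0 (median tail, both), 3 (30 to 90 nt, 24 h) and values of the other direction were 3.83 (Pabpc4 median tail, 24 h), −0.339 (Pabpc1 under 30 nt, 48 h), −0.0628 (Pabpc1 under 30 nt, both), −0.397 (Pabpc4 30 to 90 nt, 24 h), −0.0493 (Pabpc4 30 to 90 nt, both), 0.695 (Pabpc4 30 to 90 nt, the time difference). With a mapping quality of at least 10, genes called were 1 (abundance, 48 h), 0 (median tail, both), 12 (under 30 nt, both), 5 (30 to 90 nt, both) and values of the other direction were −1.07 (Pabpc4 30 to 90 nt, 48 h). With no filter on reads, genes called were 8 (abundance, 48 h), 0 (median tail, both), 0 (30 to 90 nt, 24 h). On log2(RPM + 10) without voom weights, genes called were 1 (abundance, both) and values of the other direction were 0.038 (Pabpc1 abundance, the time difference). After thinning to equal depth, genes called were 0 (median tail, both), 1 (under 30 nt, 24 h), 10 (under 30 nt, both), 2 (30 to 90 nt, 24 h) and values of the other direction were 0.20 (Pabpc1 abundance, the time difference), 1.79 (Pabpc4 median tail, 24 h), −4.71 (Pabpc4 30 to 90 nt, 48 h), 0.869 (Pabpc1 30 to 90 nt, both), −0.802 (Pabpc4 30 to 90 nt, both). Without weights, genes called were 0 (median tail, both), 1 (under 30 nt, 24 h), 1 (under 30 nt, both), 0 (30 to 90 nt, 24 h), 0 (30 to 90 nt, both), 1 (30 to 90 nt, the time difference) and values of the other direction were 0.732 (Pabpc4 median tail, 24 h), −0.00783 (Pabpc1 under 30 nt, 48 h), 0.928 (Pabpc1 30 to 90 nt, both), 1.92 (Pabpc4 30 to 90 nt, the time difference). With mean log2 tail length, genes called were 4 (median tail, 24 h), 14 (median tail, both). With mean tail length, genes called were 0 (median tail, both). With the short class under 25 nt, values of the other direction were −0.498 (Pabpc1 under 30 nt, 24 h), 1.53 (Pabpc1 under 30 nt, the time difference). With the short class under 35 nt, genes called were 1 (under 30 nt, 24 h) and values of the other direction were −1.11 (Pabpc1 under 30 nt, 24 h), −0.394 (Pabpc4 under 30 nt, 24 h), −0.498 (Pabpc1 under 30 nt, both), −0.33 (Pabpc4 under 30 nt, both), 1.22 (Pabpc1 under 30 nt, the time difference), 0.128 (Pabpc4 under 30 nt, the time difference). On log2 odds, genes called were 88 (under 30 nt, 24 h), 45 (under 30 nt, 48 h), 66 (under 30 nt, both), 12 (30 to 90 nt, 24 h), 1 (30 to 90 nt, the time difference). With all 10 libraries in 1 fit, genes called were 1 (under 30 nt, 24 h), 6 (under 30 nt, 48 h). With at least 100 reads per gene, genes called were 33 (under 30 nt, both). Relative to the library's own value over all kept reads (added after seeing the data), for library means, values of the other direction were −0.693 (Pabpc1 median tail, both), −0.0493 (Pabpc1 under 30 nt, 24 h), −0.477 (Pabpc1 under 30 nt, both), −0.0488 (Pabpc4 under 30 nt, 24 h), −0.473 (Pabpc4 under 30 nt, both). At 48 h Pabpc4 had 0 reads under 30 nt and so no direction. Its relative value of −0.896 there reflects only the share over all kept reads.

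The library numbers were not taken to pair the libraries. The deviations of same-numbered libraries from their group means correlated at 0.0189, 0.116 and 0.114 at 24 h and 0.047 at 48 h. Each 24 h library correlated best with its own number, and pairs of different numbers ran from −0.11 to 0.00412. At 48 h the deviations within a group mirror each other, so all pairs share 1 absolute value. Such small correlations cannot exclude a pairing. The replicate block left Pabpc1 and Pabpc4 uncalled.

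Leaving out 1 library at a time, the number of genes called was 0 to 8 (abundance, 24 h), 0 to 5 (abundance, 48 h), 0 to 11 (abundance, both), 0 to 2 (median tail, 24 h), 0 to 3 (median tail, 48 h), 0 to 6 (median tail, both), 1 to 18 (under 30 nt, both), 0 to 13 (30 to 90 nt, 24 h), 0 to 12 (30 to 90 nt, both), 0 to 1 (30 to 90 nt, the time difference). Values of Pabpc1 and Pabpc4 that crossed 0 ran from −0.41 to 0.026 (Pabpc4 abundance, both), −0.097 to 0.13 (Pabpc1 abundance, the time difference), −1.72 to 15 (Pabpc1 median tail, 24 h), −6.19 to 6.36 (Pabpc4 median tail, 24 h), −12.7 to 1.07 (Pabpc1 median tail, 48 h), −3.69 to 16.1 (Pabpc4 median tail, 48 h), −2.74 to 5.62 (Pabpc1 median tail, both), −1.97 to 7.91 (Pabpc4 median tail, both), −3.44 to 16.3 (Pabpc4 median tail, the time difference), −0.0922 to 1.34 (Pabpc1 under 30 nt, 24 h), −1.12 to 0.923 (Pabpc4 under 30 nt, 24 h), −1.81 to 1.87 (Pabpc1 under 30 nt, 48 h), −0.548 to 1.29 (Pabpc1 under 30 nt, both), −0.559 to 0.462 (Pabpc4 under 30 nt, both), −2.53 to 1.15 (Pabpc1 under 30 nt, the time difference), −0.923 to 1.12 (Pabpc4 under 30 nt, the time difference), −9.62 to 1.73 (Pabpc1 30 to 90 nt, 24 h), −4.11 to 7.3 (Pabpc4 30 to 90 nt, 24 h), −2.47 to 13 (Pabpc1 30 to 90 nt, 48 h), −4.56 to 12.3 (Pabpc4 30 to 90 nt, 48 h), −4.01 to 3.75 (Pabpc1 30 to 90 nt, both), −1.51 to 7.35 (Pabpc4 30 to 90 nt, both), −6.94 to 9.94 (Pabpc4 30 to 90 nt, the time difference).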
